A study of Mus musculus with 2 samples.

Results

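The 3 genomic clusters that pair a miR-99/100 gene with a miR-125 gene were followed in the embryonic mouse kidney. Members were 7 of the 1973 annotated miRNA genes with a row in the deposited tables: Mir99a, Mir99b, Mir100, Mir125a, Mir125b-1, Mir125b-2 and Gm25927. The rule names them by gene symbol and uses no measured value itself, but it was set with earlier results of these data known. Gm25927 is annotated antisense to Mirlet7e, and its counts on the opposite strand stand for let-7e, since Mirlet7e has no row of its own.

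The kidneys came from mouse embryos of strain B6NCrl at 14.5 days of gestation. The design has 1 group, for which the labels name no treatment, with 2 biological replicates of 2 kidneys each, taken on separate days. Collection day and replicate cannot be told apart, and neither the number of embryos behind a library nor its sex can be fixed, because the labels speak both of a single pup and of pooled male and female material. Whole kidney was used, so more cells of a type and more RNA per cell cannot be told apart in any level given here.

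MicroRNAs are cut as hairpins from longer transcripts and trimmed to short mature strands, which guide silencing complexes to messenger RNAs mainly through the seed, bases 2 to 8 of the mature strand. miR-125 is the vertebrate counterpart of lin-4, and lin-4 and let-7 were both found in the worm Caenorhabditis elegans as regulators of developmental timing. The miR-99/100 family is known for targeting the mTOR kinase. Maturation of let-7 is blocked by LIN28 proteins, and in the mouse embryo the Lin28 and let-7 axis has been tied to how long nephrons go on forming.

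The mature strands of the members are shown with the seed in capitals, because seed and copy number in the genome decide how the counts can be read. They are RefSeq sequences on GRCm38.p6, written 5′ to 3′, and 7 of 7 members were matched, let-7e through its own gene.
miR-99a-5p: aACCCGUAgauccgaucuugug
miR-99b-5p: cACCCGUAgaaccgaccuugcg
miR-100-5p: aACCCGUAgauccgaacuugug
miR-125a-5p: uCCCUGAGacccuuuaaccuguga
miR-125b-5p: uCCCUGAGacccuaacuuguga
let-7e-5p: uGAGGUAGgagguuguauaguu

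The members fall under 3 seeds. miR-99a-5p, miR-99b-5p and miR-100-5p share one seed, and no other mouse mature miRNA in the RefSeq table has it. miR-99a-5p differs from miR-100-5p by 1 substitution, U16A, counted from the 5′ end of miR-99a-5p. It differs from miR-99b-5p by 4 substitutions, A1C, U11A, U16C and U21C. miR-125a-5p is 24 bases long and miR-125b-5p is 22, and their first 13 bases are identical. let-7e-5p differs from let-7a-5p by G9U alone.

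miR-125b-5p is the same in Mir125b-1 and Mir125b-2, which are told apart by the rest of the hairpin, such as these opposite arms.
miR-125b-1-3p: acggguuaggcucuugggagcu
miR-125b-2-3p: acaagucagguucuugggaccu

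Among 2202 annotated miRNA transcripts, the mature 5p strand of every member other than the miR-125b pair occurred exactly in 1 hairpin only. With 1 mismatch allowed, miR-99a-5p also matched Mir100 and let-7e-5p also matched both let-7a genes. Reads placed at more than one site were tallied apart and enter no gene's count. They made up 28.3% of the reads of replicate 1 and 27.5% of those of replicate 2, and numbered 739 times the summed counts of both miR-125b genes in replicate 1 and 518 times in replicate 2. How many of them carry miR-125b was not tested, and the 2 miR-125b levels are counts of uniquely placed reads only.

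The 7 genes took 378442 of 5227969 counts in replicate 1 and 246410 of 3698988 in replicate 2. That is 7.24% (95% exact Clopper-Pearson interval 7.22 to 7.26) in replicate 1 and 6.66% (6.64 to 6.69) in replicate 2, a mean of 6.95% ± 0.408 (SD, n = 2). All 7 had 10 or more counts in each replicate, the minimum for calling a gene detected, against 346 of 1973 genes in the whole table (17.5%). Intervals here cover counting error only and may be too narrow, since no molecular identifiers separate PCR copies.

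**Figure D1:**
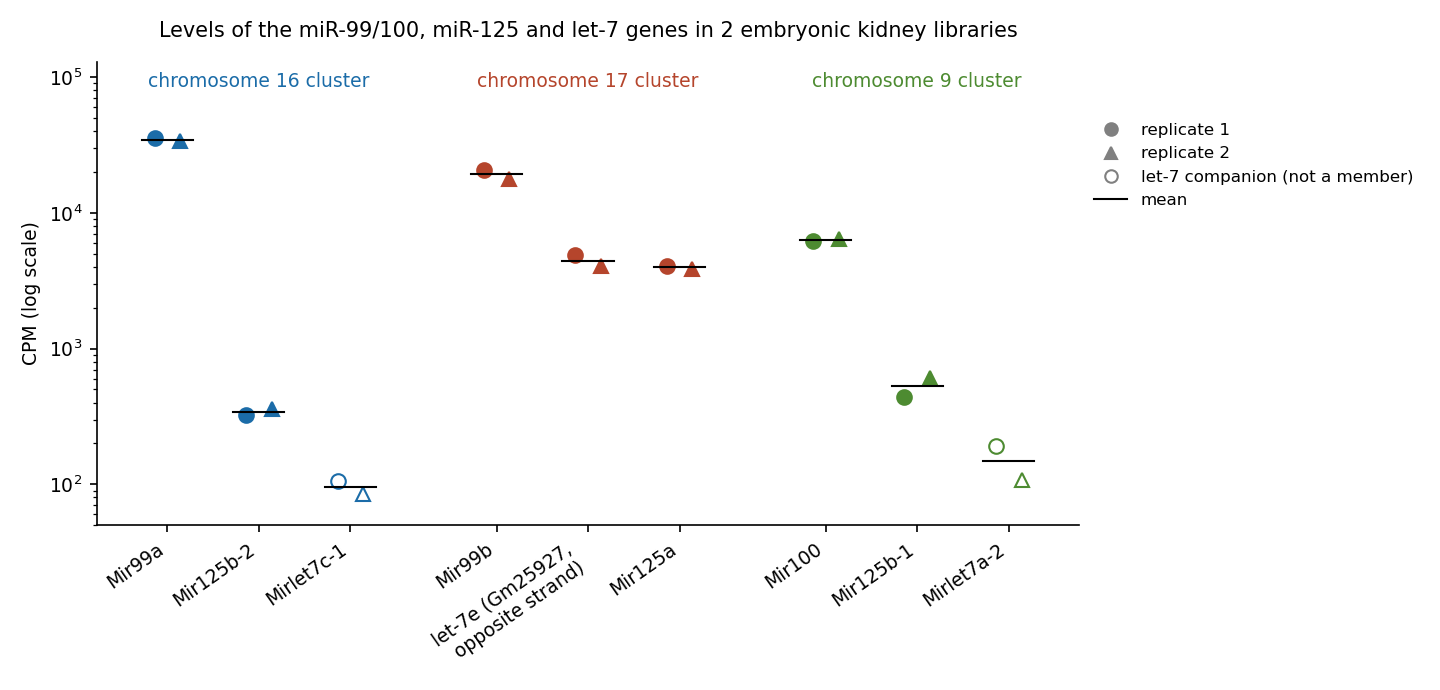
Levels of the 7 genes and of 2 let-7 genes in the same clusters, in counts per 1000000 counts on miRNA genes (CPM) on a log axis. Circles are replicate 1, triangles replicate 2, bars the mean, and open symbols the let-7 companions. In counts of uniquely placed reads, the miR-99/100 gene is the highest in each cluster.

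The miR-99/100 genes carried most of these counts. Mir99a (ENSMUSG00000065530.1) had 186699 counts in replicate 1 and 124384 in replicate 2, or 35712 and 33627 CPM (counts per 1000000 counts on miRNA genes), a mean of 34669 ± 1474 CPM (SD, n = 2). It was the gene of rank 6 in the whole table, between Mirlet7i at 40461 ± 84.9 CPM and Mirlet7g at 33889 ± 3264 CPM. The replicate ranges of Mir99a and Mirlet7g overlapped, so their order is not set beyond the spread. Mir99b (ENSMUSG00000065396.1) had 20794 CPM in replicate 1 and 17661 CPM in replicate 2, a mean of 19227 ± 2216 CPM and rank 15. Its neighbours were Mir30e at 20656 ± 1171 CPM and Mir143 at 18562 ± 1075 CPM, and both ranges overlapped its own. Mir100 (ENSMUSG00000093011.1) had 6178 and 6423 CPM, a mean of 6301 ± 174 CPM and rank 29, next to Mir652 at 6736 ± 107 CPM and Mir214 at 5979 ± 661 CPM. The range of Mir214 overlapped that of Mir100 and the range of Mir652 did not.

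Between the 3 family members the order was the same in both libraries and the replicate ranges did not overlap. On the log2(CPM + 1) scale Mir99a exceeded Mir99b by 0.85 ± 0.11 and Mir100 by 2.46 ± 0.10, and Mir99b exceeded Mir100 by 1.60 ± 0.21 (SD, n = 2). Together they held 6.02% ± 0.352 of counts, of which Mir99a made up 57.6% ± 0.917, Mir99b 31.9% ± 1.82 and Mir100 10.5% ± 0.902. With 2 replicates an exact sign test cannot pass any threshold, so no p is given for differences between genes.

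The miR-125 genes were lower and unequal. Mir125a (ENSMUSG00000065479.1) had 4083 CPM in replicate 1 and 3876 CPM in replicate 2, a mean of 3980 ± 147 CPM and rank 45. Mir125b-1 (ENSMUSG00000093354.1) had 442 CPM in replicate 1 (95% exact Poisson interval 424 to 460) and 611 CPM in replicate 2 (586 to 637). Mir125b-2 (ENSMUSG00000065472.1) had 324 CPM (309 to 340) in replicate 1 and 360.1 CPM (341 to 380.0) in replicate 2. The miR-125b genes, at ranks 106 and 121, are the members whose mature strand cannot be placed. On the log2 scale Mir125a exceeded Mir125b-1 by 2.93 ± 0.38 and Mir125b-2 by 3.54 ± 0.16, differences that hold for uniquely placed reads only. Mir125b-2 minus Mir125b-1 was -0.60 ± 0.22, and their replicate ranges did not overlap.

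The miR-125 list held 0.485% in each replicate, although the shares of its parts differed. Mir125a made up 84.2% of it in replicate 1 and 80.0% in replicate 2, and Mir125b-1 made up 9.11% and 12.6%. A search of the RefSeq mature strands for the miR-125 seed also returned Mir351, Mir6367 and Mir6394. Mir351, an X-linked gene outside these clusters, had 9482 CPM in replicate 1 and 6129 CPM in replicate 2, while the other 2 had no counts. Mir351 thus exceeded Mir125a in both libraries, and with it the genes with this seed held 1.27% ± 0.237. The shares of the list and of the seed leave out reads of miR-125b-5p that fit both of its genes.

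let-7e, read on the strand opposite to Gm25927 (ENSMUSG00000092799.1), had 25381 counts in replicate 1 and 15010 in replicate 2. That is 4855 CPM in replicate 1 and 4058 CPM in replicate 2, a mean of 4456 ± 564 CPM, which would be rank 42. Gm25927 itself had 0 counts on its own strand in both libraries, which leaves a ceiling of 0.574 CPM (replicate 1) or 0.811 CPM (replicate 2), the level of 3 counts. Its 117 bases contain all 93 bases of the Mirlet7e hairpin on the other strand. It made up 24.8% of all opposite-strand counts in replicate 1 and 22.3% in replicate 2, the second largest such gene. None of the other 6 members had an opposite-strand count. The let-7 seed is carried by 13 genes with a row to read, let-7e among them, if Mirlet7a-2 is included for the exact copy of let-7a-5p in its hairpin. These 13 held 9.76% ± 0.696 of counts (SD, n = 2), and 8 of them were lower than let-7e in both replicates. Of these 8, Mir1961 and Mir7k had no counts at all. The let-7a, let-7c and let-7f strands each come from more than 1 gene, and reads placed at several sites are not counted. The family share and the place of let-7e in it therefore hold for uniquely placed reads only. Both also leave out Mirlet7f-1, a further gene with this seed that has no row under its name.

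**Figure D2:**
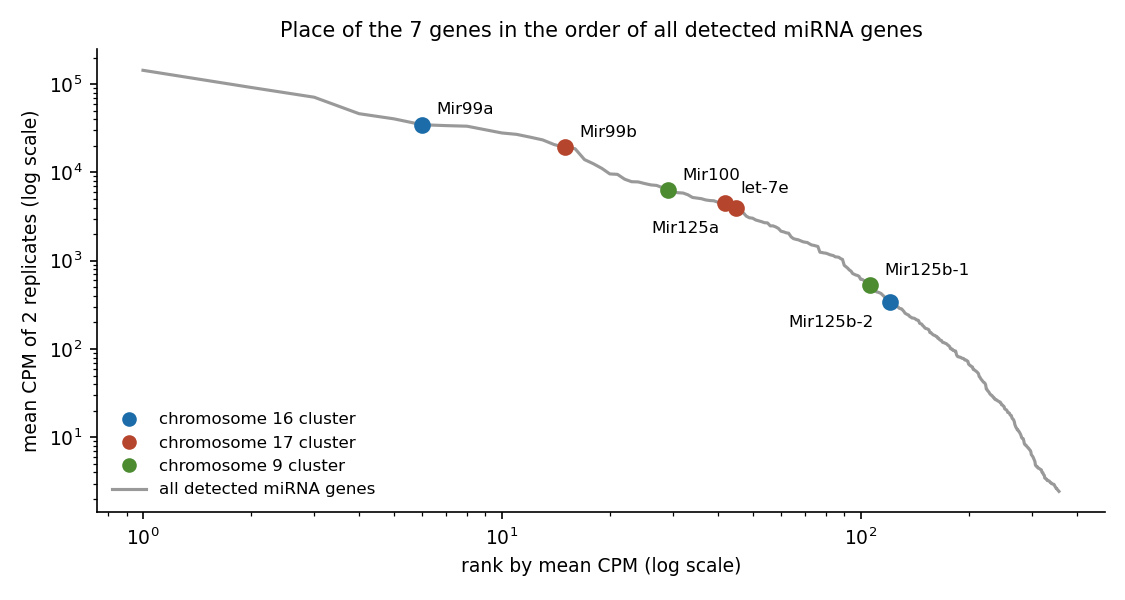
Mean CPM of all detected miRNA genes against rank, both on log axes, with the 7 members coloured by cluster. In counts of uniquely placed reads, the members run from rank 6 (Mir99a) to rank 121 (Mir125b-2). Only let-7e and Mir125a lie close to each other.

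Ordered by level, the members ran Mir99a, Mir99b, Mir100, let-7e, Mir125a, Mir125b-1 and Mir125b-2. Of the 6 steps in this order, 5 had replicate ranges that did not overlap. The exception was let-7e and Mir125a, where the lower library of let-7e at 4058 CPM fell below the higher library of Mir125a at 4083 CPM. The largest of these steps, 7.56-fold between means, separated Mir125a from Mir125b-1. Its size holds for uniquely placed reads only, since reads that fit both miR-125b genes are not counted. In the whole table let-7e stood between Mir92-1 at 4557 ± 574 CPM and Mir181d at 4315 ± 217 CPM, and Mir125a between Mir296 at 4025 ± 767 CPM and Mir30d at 3633 ± 146 CPM. Mir125b-1 stood between Mir195a at 553 ± 36.5 CPM and Mir381 at 515 ± 66.0 CPM, and Mir125b-2 between Mir187 at 343 ± 88.7 CPM and Mir501 at 335 ± 49.0 CPM. Of these neighbours, all but Mir30d overlapped the range of their member.

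Each cluster repeats the same gene order along the genome, with a miR-99/100 gene first, a let-7 gene next and a miR-125 gene last, all transcribed from the plus strand. On chromosome 16, Mir99a (mm10 77598936 to 77599000) is followed by Mirlet7c-1 and Mir125b-2 (77646273 to 77646343), a span of 47408 bases in introns of the noncoding host Mir99ahg. On chromosome 9, Mir100 (41531425 to 41531504), Mirlet7a-2 and Mir125b-1 (41581926 to 41582002) span 50578 bases. In this annotation they lie inside transcripts of the noncoding genes 3110039I08Rik and Gm49317, and Mir125b-1 also overlaps an exon of Gm28119. On chromosome 17, Mir99b (17830188 to 17830257), Mirlet7e (17830352 to 17830444) and Mir125a (17830812 to 17830879) span 692 bases within Spaca6, a protein-coding gene. Mir99b and Mirlet7e are intronic there, and Mir125a overlaps an exon in 1 of 3 spanning transcripts.

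**Figure D3:**
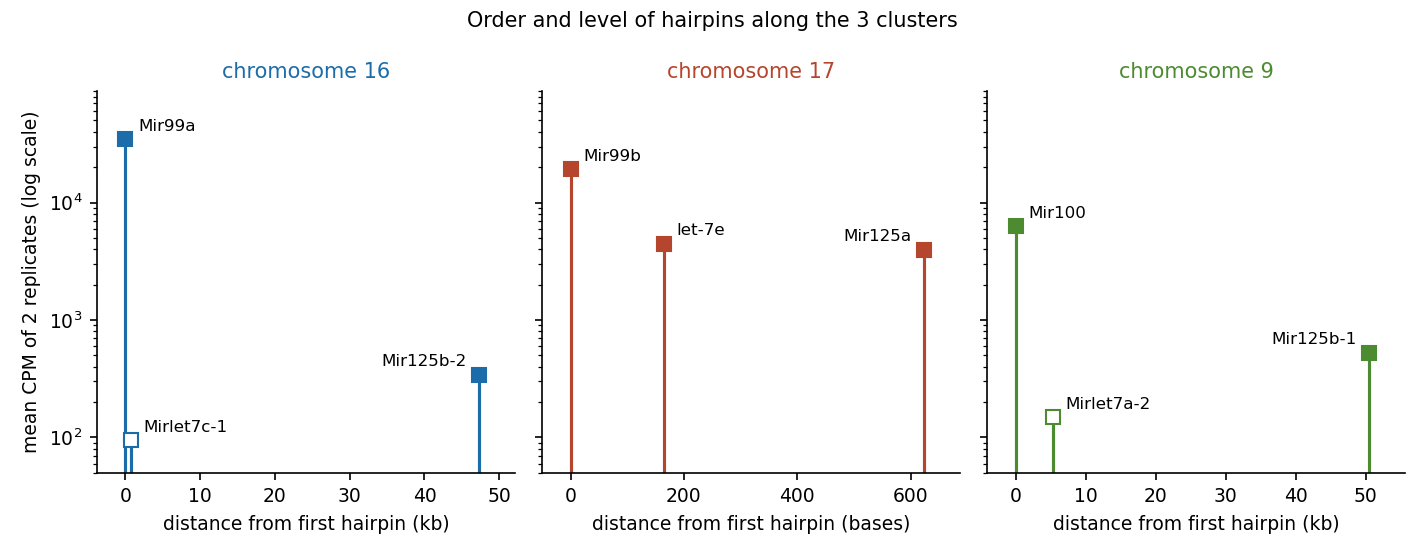
Mean CPM of 2 replicates (log axis) against distance from the start of the first hairpin of each cluster, in kb for chromosomes 16 and 9 and in bases for chromosome 17. Filled squares are members and open squares the let-7 companions. In counts of uniquely placed reads, the first hairpin of each cluster is the highest, and the chromosome 17 cluster has the flattest profile. On chromosomes 16 and 9 the let-7 and miR-125 strands each have an exact copy in another gene.

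The clusters differed in how evenly their genes were counted. The chromosome 16 cluster held 3.50% ± 0.145 of counts, and Mir99a made up 99.0% ± 0.113 of its 2 members. Mir99a exceeded Mir125b-2 by 6.66 ± 0.17 on the log2 scale, with an interval for counting error of 6.71 to 6.85 in replicate 1 and 6.47 to 6.62 in replicate 2. In the chromosome 9 cluster, at 0.683% ± 0.0293, Mir100 made up 92.3% ± 1.42 and exceeded Mir125b-1 by 3.60 ± 0.29. In the chromosome 17 cluster, at 2.77% ± 0.293, Mir99b made up 69.5% ± 0.662, let-7e 16.1% ± 0.335 and Mir125a 14.4% ± 0.998. There Mir99b exceeded let-7e by 2.11 ± 0.02 and Mir125a by 2.27 ± 0.11, and let-7e minus Mir125a was 0.16 ± 0.13.

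The chromosome 17 cluster is the one in which all 3 hairpins have a mature strand found nowhere else in the annotation. In the other 2, the let-7 and miR-125 strands each have an exact copy in another gene. The let-7 companions, counted but not members, were lower still. Mirlet7c-1 had 105 CPM in replicate 1 and 84.6 CPM in replicate 2, and Mirlet7a-2 had 191 CPM and 107 CPM. Their copies elsewhere were at a like level, with 72.6 ± 18.5 CPM for Mirlet7c-2 and 143 ± 41.0 CPM for Mirlet7a-1 (SD, n = 2). The part of sequence copies in the low counts of these genes was not tested.

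These are levels per gene, and hairpins were not weighted by length, since a read covers a mature strand. Per base of the annotated hairpin, let-7e minus Mir125a turned to -0.63 on the log2 scale with the 117 bases of Gm25927 and to -0.29 with the 93 bases of Mirlet7e. Mir99b minus let-7e was 2.85 and 2.52 with these lengths, and the remaining differences kept their sign.

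To see how far the levels held between libraries, each gene's counts in replicate 1 were set against those in replicate 2 in an exact binomial test (two-sided), with Benjamini-Hochberg adjustment over all 346 detected genes. The test takes only counting error into account and compares libraries, not conditions. At an adjusted p below 0.05, 4 of the 7 members were higher and 3 lower in replicate 1, against 27.5% of all detected genes higher and 26.6% lower. No member also reached a log2 ratio of 1 in size, as 3.18% of detected genes did. The median absolute log2 ratio of the members was 0.15, against 0.24 over all detected genes. For this median and for the shares above, detected genes were not matched to the members in level. Even Mir125b-2, the lowest member, lay above 65.0% of them. With counts this high the test passes very small differences, such as a log2 ratio of -0.06 for Mir100.

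**Figure D4:**
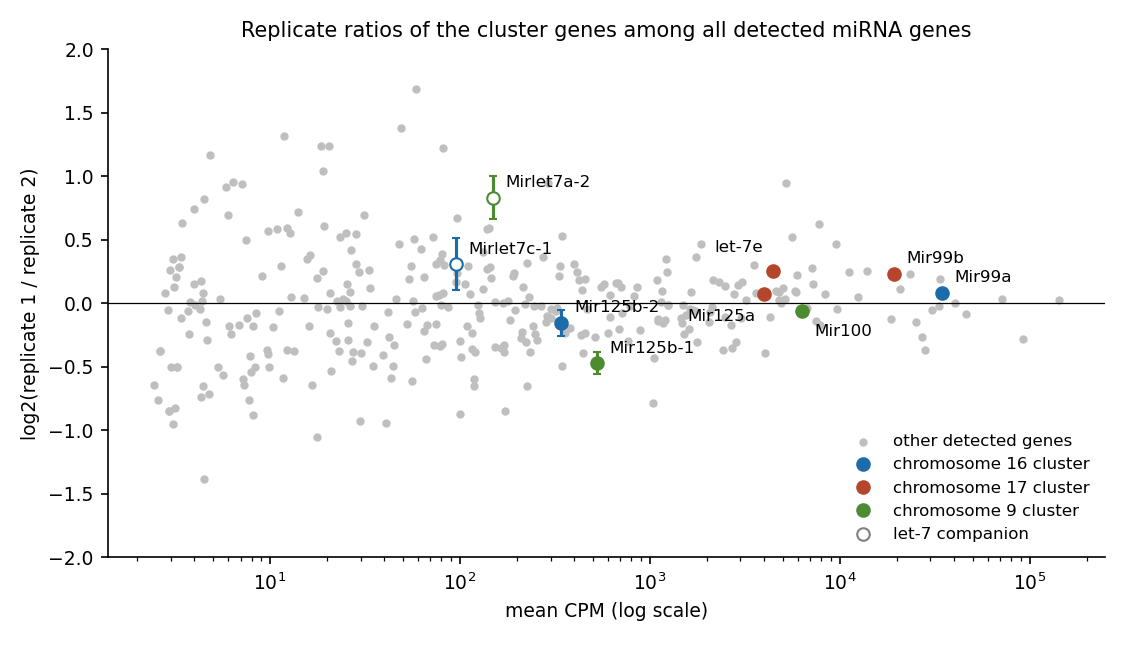
Log2 ratio of replicate 1 over replicate 2 against mean CPM (log axis) for all detected genes (grey) and the cluster genes (coloured, open for the let-7 companions). Error bars are 95% exact intervals for counting error, and 1 gene, Mir122, lies beyond the axis. The 7 members lie between -0.47 and 0.26.

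Within the chromosome 17 cluster all 3 members were higher in replicate 1. The log2 ratio was 0.23 for Mir99b (95% exact interval 0.22 to 0.25), 0.26 for let-7e (0.23 to 0.29) and 0.07 for Mir125a (0.04 to 0.10). On chromosome 16 Mir99a was higher in replicate 1 at 0.08 (0.07 to 0.09), and Mir125b-2 was lower at -0.15 (-0.26 to -0.05, adjusted p = 0.00814 in the exact binomial test). On chromosome 9 Mir100 was lower at -0.06 (-0.08 to -0.03), and Mir125b-1 was lower at -0.47 (-0.55 to -0.39), the member that differed most. Its shift was larger in size than that of 77.2% of detected genes, which were not matched to it in level.

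Both miR-125b genes were thus lower in replicate 1, while let-7e and both let-7 companions were higher, with Mirlet7c-1 at 0.31 and Mirlet7a-2 at 0.83. With an assumed coefficient of variation of 0.2 between replicates, edgeR's exact test called 0 of 7 members and 2 of all 346 genes. In that test 0 of 7 members had an unadjusted p below 0.05, and the lowest was 0.257. That coefficient was assumed and not measured, so the count of 0 holds for this choice of it. The p-values of the binomial test describe these 2 libraries and not a spread between animals.

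The libraries also differed in markers of other tissues. Mir122, abundant in hepatocytes, had 56.0 CPM in replicate 1 and 1069.8 CPM in replicate 2, and the erythroid genes Mir144 and Mir451a summed to 153 and 72.7 CPM. The part of such cells in the replicate ratios of the members was not tested. All 5 epithelial miR-200 genes, endothelial Mir126a, all 4 stromal and smooth muscle genes and 3 of 4 tubule genes were detected, and neural Mir124a-1 and gonadal Mir202 had no counts. No row was found under the name of neural Mir9-1, so the neural list rests on Mir124a-1 alone. Of 3 skeletal and cardiac muscle genes 1 was detected, with Mir1a-1 and Mir133a-1 at 0, and the summed level of the list was 71.9 (replicate 1) and 53.3 (replicate 2) CPM. Marker levels are also counts of uniquely placed reads, and copies of the marker strands in other genes were not looked for. A marker without counts therefore does not show that its tissue was absent.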

How the data were processed

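Small RNA libraries covering lengths below 30 nucleotides, per the labels, were sequenced from 2 samples. The authors deposited raw counts of reads per annotated miRNA gene, mapped to mm10 with GENCODE M4 per the files' descriptions. The aligner and counter were not given in the sources used here. There are 3 columns of counts per table, for both strands, the gene's strand and the opposite strand. The 4 tally rows that name no gene, among them unmapped reads (16.8% and 14.1% of reads in replicates 1 and 2) and reads on no feature (4.06% and 2.91%), were left out. Counts on the gene's strand were used, with the opposite strand for Gm25927, and totals included those. Names and positions came from GENCODE M21, which matched 1894 of 1973 identifiers. With 1 group, edgeR's quasi-likelihood test could not be fitted. Libraries were compared with an exact binomial test given totals scaled by TMM, tested on simulated counts. Differences used a pseudocount of 1 CPM. Members, lists and tests were chosen with earlier results of these data known. Named genes were the members, their let-7 companions and copies, Mir10a, Mir10b and rank neighbours; Mir351 and Mir122 were added for their seed and as a marker. Alternatives were other scalings, minimums, pseudocounts, strands and totals, an edgeR exact test and each replicate alone. Software was Python 3.11.15 with scipy 1.17.1, and edgeR 4.0.16 and DESeq2 1.42.0 under R 4.3.3.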

Additional observations from a re-analysis of the deposited data

How the results depend on the processing

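No paired analysis was possible because there is 1 group. All 7 members were detected at a minimum of 1 or 100 counts and with both strands counted. All 7 also passed the replicate comparison with DESeq2 size factors, library totals alone, either minimum or both strands, each with its direction kept, but 0 passed in edgeR's exact test with an assumed coefficient of variation of 0.2. The members' share was 8.11% without Mir10a in the total and 3.63% of all reads of a library. The miR-125 share was 0.478% with both strands counted and 1.27% with every gene of that seed, a set chosen after seeing the data. Per base of the hairpin, also chosen after seeing the data, Mir99b minus let-7e was 2.85, Mir99a minus Mir99b 0.96, Mir99a minus Mir100 2.76 and let-7e minus Mir125a -0.63 on the log2 scale. With the Mirlet7e hairpin in place of Gm25927, added likewise, Mir99b minus let-7e was 2.52 and let-7e minus Mir125a -0.29. Each replicate alone kept the sign of all 11 differences. At this depth 3 counts equal 0.574 CPM in replicate 1 and 0.811 CPM in replicate 2, far below all members, whereas reads of miR-125b-5p that fit both genes are not counted for either.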

Other observations

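The mature strands of the Hox-cluster genes Mir10a and Mir10b resemble those of miR-99 and miR-100 but have another seed (capitals, RefSeq GRCm38.p6).
miR-10a-5p: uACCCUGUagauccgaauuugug
miR-100-5p: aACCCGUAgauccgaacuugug
The longest stretch that miR-100-5p and miR-10a-5p share is 11 bases, from base 6 of miR-100-5p and base 7 of miR-10a-5p. For miR-99a-5p and miR-10a-5p it is 10 bases, and for miR-100-5p and miR-10b-5p it is 5. Other pairs were not compared, among them miR-99b-5p with either miR-10 strand, so these lengths do not describe the whole family. Mir10a and Mir10b, the only genes with the miR-10 seed in the RefSeq table, held 21.4% ± 0.314 of counts, against 6.02% ± 0.352 for the 3 genes with the miR-99/100 seed (SD, n = 2).

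Detected genes on the same strand with gaps of at most 50 kb formed 40 further groups of 2 or more. From highest to lowest gene, these spanned a median of 3.30 on the log2 scale, with a range of 0.15 to 12.50. With the let-7 companions included, the chromosome 16 cluster spanned 8.50, with 3 of the 40 wider. The chromosome 9 cluster spanned 5.39, with 14 wider, and the chromosome 17 cluster spanned 2.27, with 25 wider. The lowest genes on chromosomes 16 and 9 were Mirlet7c-1 and Mirlet7a-2, whose mature strands have exact copies in another gene. Reads that fit several sites are not counted, and the groups were not matched for number of genes. This grouping was made after the values were known and is a description with no test.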
